A study of Mus musculus with 2 samples.

Results

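The genes described here are the receptors that the array design names Gpr followed by a number, most of them orphan G protein-coupled receptors, in microglia sorted from mouse spinal cord. Members were all probes, apart from control spots, whose gene name in the scanner files is Gpr, a number and at most 1 further letter, leaving out Gpr34 and Gpr56. This gave 113 of 55681 probes and 92 of 35017 gene names. The rule uses names only and no measured value. Atopic diathesis, a tendency to develop allergic disease, was the condition modelled in the mice of 1 sample, titled activated by the submitters, and the other sample came from control mice and was titled normal. Each was total RNA of sorted microglia, amplified and labelled with a low-input kit, on 1 single-colour (Cy3) array, and the file headers give both arrays the same scan. How the model was made, the strain and age of the mice, and how many animals a sample holds are not given in the sources used here.

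G protein-coupled receptors cross the membrane with 7 helices and pass signals from lipids, metabolites, peptides or protons to G proteins inside the cell. A Gpr number was given to receptors found by sequence before a ligand was known, and many still lack an agreed one, which is what orphan means. Some have since been renamed after their ligand or family, and a few Gpr-named proteins turned out to be membrane proteins of the Golgi or lysosome, or transporters. In microglia and other macrophages, Gpr84, Gpr183 and Gpr65 are known members that sense fatty acids, oxysterols and protons. Of the 92 names, 21 carry another or a further current symbol in RefSeq (GRCm38.p6), such as Ptgdr2 for Gpr44, C5ar2 for Gpr77, Adgra2 for Gpr124 and Slc52a2 for Gpr172b.

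Because a receptor's value here rests on its probe, the 60-base probes that carry the results are shown first, 5′ to 3′ as the scanner files give them. Capitals mark AATAAA, the polyadenylation signal found near the end of most messenger RNAs, except in the Gpr77 pair, where capitals mark the 44 bases that both probes share.
Gpr183: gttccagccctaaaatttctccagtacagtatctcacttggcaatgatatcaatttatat
Gpr84: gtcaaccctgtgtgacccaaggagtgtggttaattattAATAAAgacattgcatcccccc
Gpr65: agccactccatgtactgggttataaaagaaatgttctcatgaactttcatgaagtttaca
Gpr77 probe 1: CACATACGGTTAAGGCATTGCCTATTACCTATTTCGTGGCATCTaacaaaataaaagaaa
Gpr77 probe 2: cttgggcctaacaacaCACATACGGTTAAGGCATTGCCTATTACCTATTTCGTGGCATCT
Gpr107: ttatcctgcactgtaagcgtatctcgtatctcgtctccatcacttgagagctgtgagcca
Gpr137: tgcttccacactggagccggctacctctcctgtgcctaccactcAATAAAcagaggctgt
Gpr155: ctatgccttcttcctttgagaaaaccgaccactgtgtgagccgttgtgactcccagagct
Gpr149: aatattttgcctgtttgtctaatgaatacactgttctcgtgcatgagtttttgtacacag

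On build mm9, as the files give it, these probes lie at chr14:122351881-122351940 (Gpr183, minus strand), chr15:103138670-103138729 (Gpr84, minus), chr12:99514727-99514786 (Gpr65, plus), chr7:16820085-16820144 and chr7:16820101-16820160 (Gpr77, minus), chr2:31071693-31071752 (Gpr107, plus), chr19:7012568-7012627 (Gpr137, minus) and chr3:62334128-62334187 (Gpr149, minus). The Gpr155 probe has its ends at chr2:73191775-73194678 on the minus strand, 2904 bases apart for 60 bases of sequence, so it spans at least 1 intron. The probes were designed on transcripts and an mm9 annotation was not used here, so exon and UTR positions are not stated. None of the 113 probes shares a run of 25 bases with a probe of another gene. AATAAA occurred in 7 of the 26 Gpr-named probes well above background on either array (26.9%) and in 10 of the 87 on neither (11.5%), against 12.8% and 8.79% of all probes in those classes.

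Each array holds 59305 spots apart from controls, none saturated. A probe was well above background, by the scanner software's flag, in 15386 cases on the atopic diathesis array (27.6% of all probes) and 13430 on the control array (24.1%). Differences are log2 processed signal minus the array's 75th percentile over the 11263 probes well above background on both arrays, atopic diathesis minus control. On this scale the median of all 9217 measured genes was 0.08. There are no replicates, so differences could not be tested and carry no p-value. Repeated spots give the error at hand: for 71 probes with a mean signal of at least 100 it gave a 95% interval of ±0.28 on a log2 difference, and for 30 dimmer probes ±0.59. It covers spot error only, with spots marked as outliers left out. The spread between animals, sorts or amplifications is not covered, and the number of arrays leaves it unknown. All 12 microglia marker genes were well above background on both arrays and within 2-fold, with log2 differences of -0.36 to 0.63. P2ry12 read 5203 in atopic diathesis and 5505 in control.

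Most Gpr-named receptors were not detected in these microglia. Of 92 genes, 23 (25%) had a probe well above background on at least 1 array, against 38.8% of all gene names. Of these, 14 were detected on both arrays, 6 in atopic diathesis alone and 3 in control alone, which is 15.2%, 6.52% and 3.26% of the members, against 26.3%, 8.06% and 4.14% of all gene names. Per probe, 22 of 113 were detected in atopic diathesis (19.5%) and 19 of 113 in control (16.8%), against 27.6% and 24.1% of all probes. The 113 probes are the whole member set and 16 genes have more than 1, so no interval is given. The 87 probes on neither array had signals of 3.99 to 23.3 in atopic diathesis and 3.92 to 18.3 in control, and for 34 of them the software had put a surrogate in place of a signal on both arrays, so no difference is read from them.

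**Figure D1:**
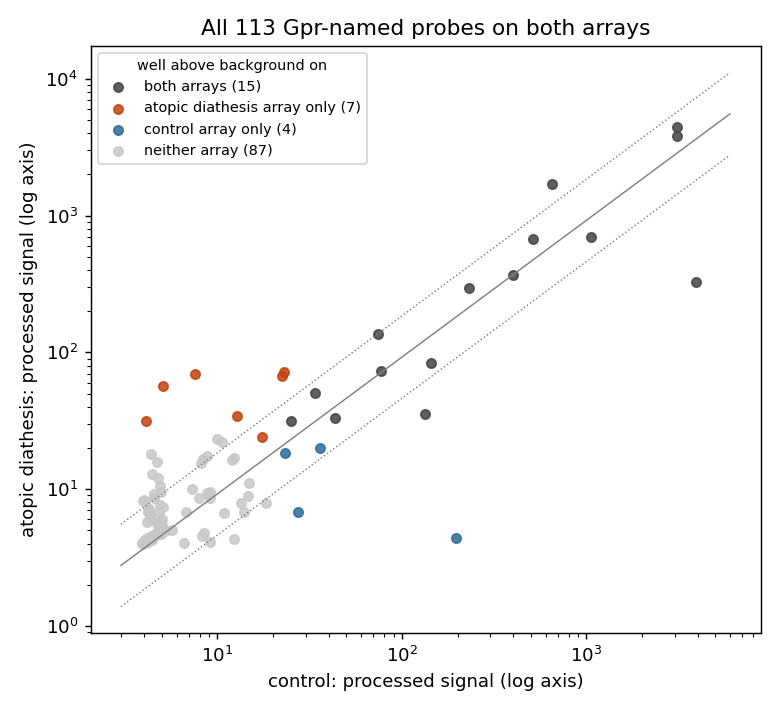
Processed signal of each of the 113 Gpr-named probes in atopic diathesis (vertical, log axis) and in control (horizontal, log axis), coloured by the array on which it was well above background. The solid line marks equal scaled signal and the dotted lines 2-fold, and 87 probes lie in the dim corner, detected on neither array.

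By role, the 23 detected genes fell as follows, with 38.8% of all gene names detected on either array. Of 15 receptors known from immune cells 7 were detected, 5 of them on both arrays. Of 9 Gpr-named proteins of inner membranes or of no classical receptor type 6 were detected, and 2 of the 3 that raise cyclic AMP. Of 14 on the array with a lipid or metabolite ligand 3 were detected, of 27 neuron-enriched orphans 4, of 16 adhesion receptors 1 and of 3 class C orphans 0. A gene can be in several of these lists, which were chosen with earlier results of these data known.

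**Figure D2:**
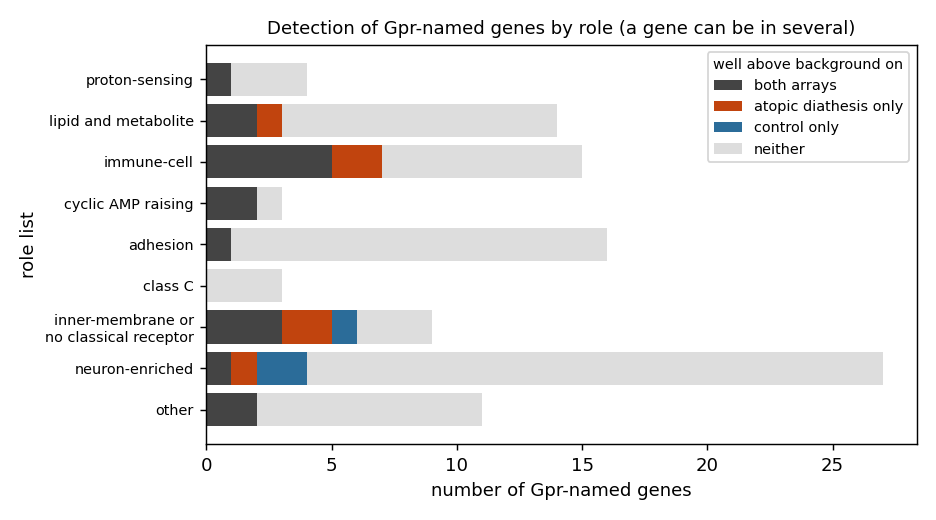
Number of Gpr-named genes in each role list (horizontal axis), split by the array on which a probe was well above background. Detected genes number 7 of 15 immune-cell receptors, 6 of 9 inner-membrane proteins, 1 of 16 adhesion receptors and 4 of 27 neuron-enriched orphans.

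Of the 14 genes measured on both arrays, 3 lay past 2-fold, against 32.8% of all measured genes. Gpr183 was higher in atopic diathesis microglia, and Gpr107 and Gpr137 were lower. One of 14 higher (7.14%) and 2 of 14 lower (14.3%) compare with 18.6% and 14.2% of all 9217 measured genes, so these shares are not above the background. Scalings split the calls of all genes differently, with 56.7% of them higher here, 28.3% when the 75th percentile is taken over all probes, 42.00% after quantile normalization and 42.02% in the deposited series table. The other 11 were within 2-fold, 8 of the 14 lay above 0 and 6 below, and their median was 0.23, with a range of -3.47 to 1.50. Of the 6 genes seen in atopic diathesis alone, 4 had a bound of at least 2-fold, against 62.4% of all such genes, and of the 3 in control alone 1 did, against 48.3%. With normexp background correction, or without background subtraction, 0 of those 4 (Gpr44, Gpr108, Gpr162 and Gpr172b) kept a bound of at least 2-fold.

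**Figure D3:**
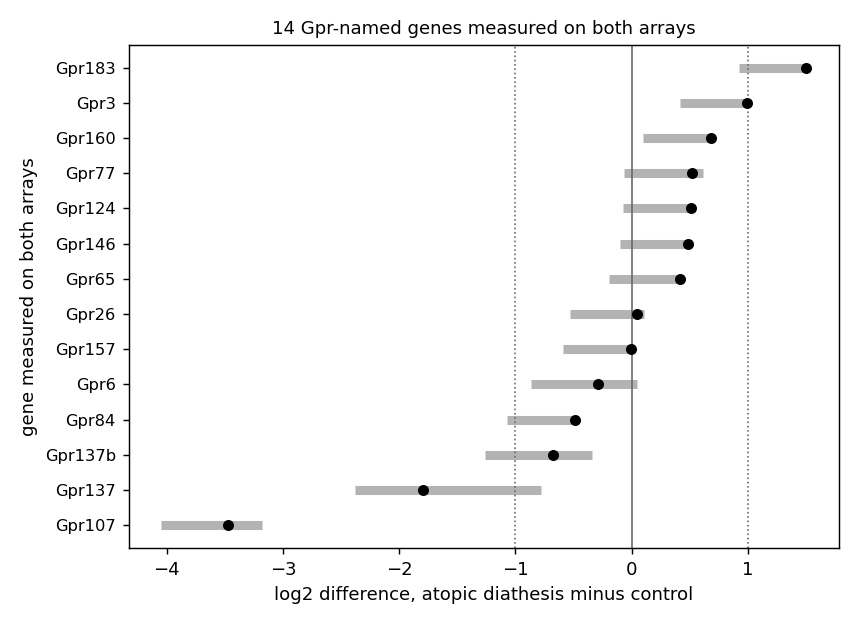
Log2 difference, atopic diathesis minus control (horizontal axis), of the 14 Gpr-named genes measured on both arrays. Points are the main values, grey bars span the values under 12 other processing settings, and dotted lines mark 2-fold. Gpr183 is highest at 1.50 and Gpr107 lowest at -3.47.

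Among receptors for lipids and metabolites, Gpr183 and Gpr84 were measured on both arrays, and Gpr183 lay past 2-fold. It encodes EBI2, a receptor for hydroxylated cholesterols that guides the migration of B cells, T cells and dendritic cells. Its probe read 1708 in atopic diathesis microglia, against 653 in control (log2 signals of 10.74 and 9.35), with software errors of 171 and 65.5. The scaled difference was 1.50, 2.83-fold higher, outside the ±0.28 of spot error, and its software error was 0.20 on the log2 scale. This probe was printed once per array. With the 75th percentile taken over all probes it was 0.92, just under 2-fold, on a scale where the median measured gene itself lies at -0.50.

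The genes that make and break down its ligands were dim or seen on 1 array. Ch25h, the enzyme that forms 25-hydroxycholesterol in macrophages, read 4.93 in atopic diathesis and was above background in control at 32.4, at least 1.50-fold lower. Hsd3b7, which acts on oxysterols in the next steps and removes the Gpr183 ligand, read 5.60 in atopic diathesis and 625 in control, at least 29.0-fold lower on its only probe. Cyp27a1, a sterol hydroxylase, was above background in atopic diathesis only, with a mean signal of 31.2 against 21.6. Cyp7b1, which completes the ligand, was on neither array. Values under other processing settings are not given for these enzymes, so nothing is read for the ligand pathway. For a gene detected on 1 array, the bound divides its signal there by the lowest flagged signal of the other array, or by the gene's own reading there where that is higher, after scaling.

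Gpr84, a receptor for medium-chain fatty acids that macrophages and microglia induce in inflammation, did not go the same way as Gpr183. It read 700.2 in atopic diathesis and 1063 in control (log2 signals of 9.45 and 10.05). The difference of -0.49 was within 2-fold, although beyond the spot error. With the 75th percentile taken over all probes it was -1.07.

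Gpr44, now Ptgdr2, is the prostaglandin D2 receptor of type 2 helper T cells, eosinophils and basophils, and was detected in atopic diathesis only. Its signal was 56.3 there and 5.04 in control, at least 3.09-fold higher. Of 7 T and NK cell markers on the array, 6 were on neither array, Cd3e included, and Cd4 read 304 in atopic diathesis and 378 in control. The part of other cells in the Gpr44 signal was not tested.

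The other 11 lipid and metabolite receptors were on neither array. Among them were Gpr18 and Gpr174, the lysophosphatidylinositol receptor Gpr55, the lactate receptor Gpr81 and Gpr17, which marks oligodendrocyte precursors. Gpr35, which responds to kynurenic acid, came closest: of its 3 probes, 2 read 22.3 and 23.3 in atopic diathesis and 10.6 and 9.96 in control, none of them flagged. The lowest probe signals flagged as well above background were 19.9 in atopic diathesis and 19.8 in control.

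Gpr77 was within 2-fold on both of its probes. It encodes C5ar2, the second receptor of the complement fragment C5a. Probe 1 read 3829 in atopic diathesis and 3111 in control, and probe 2 read 4405 and 3110. Their log2 differences were 0.41 and 0.62, and since they share 44 of 60 bases they are not separate readings. The mean was 0.52.

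Gpr65 is the one detected receptor with repeated spots, 10 per array. It senses extracellular protons and raises cyclic AMP. The spots ran from 18.9 to 41.9 with a median of 31.6 in atopic diathesis, and from 16.7 to 31.2 with a median of 25.6 in control, so the arrays overlapped. The flag was set on 8 of 10 spots in atopic diathesis and 7 of 10 in control. The difference of 0.41 compares with an SD between spots of 0.36 in atopic diathesis and 0.24 in control (log2 scale). Gpr4 and Gpr132, which also respond to protons, were on neither array.

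Gpr160, an orphan that has been linked to spinal cord pain signalling in rodents, read 50.2 in atopic diathesis and 33.9 in control, a difference of 0.68. Gpr82, whose gene neighbours Gpr34 on the X chromosome, was above background in atopic diathesis only, at 31.3 against 4.09, at least 1.71-fold higher. Under other settings the Gpr82 bound ran down to 1.14-fold. Gpr165 was likewise seen in atopic diathesis only, at 24.2 against 17.5, at least 1.32-fold higher, but its log2 bound was -0.18 with the 75th percentile over all probes, after quantile normalization and in the deposited series table, so that no direction is read.  Receptors of this list on neither array included Gpr15, Gpr18, Gpr33, Gpr132, Gpr141, Gpr171 and Gpr174.

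Among the receptors that raise cyclic AMP without a bound ligand, Gpr3 came closest to the threshold without passing it. It read 137 in atopic diathesis and 74.3 in control, a difference of 0.99 (1.99-fold). Under other scalings and background corrections it ran down to 0.41. Gpr6 read 33.0 in atopic diathesis and 43.5 in control (-0.29). Gpr12, printed 10 times, had no spot above background on either array, its usable spots lying between 4.07 and 5.34 in atopic diathesis and between 3.99 and 5.38 in control.

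The inner-membrane group held both measured genes that were lower by 2-fold or more. These were 2 of its 3 genes measured on both arrays, against 14.2% of all measured genes. It also held 3 of the 5 bounds of that size, with Gpr108 and Gpr172b higher and Gpr155 lower in atopic diathesis. Over all genes, 62.4% of those seen in atopic diathesis alone and 48.3% of those in control alone had such a bound. With so few genes, no result is read for the group. Gpr107, a Golgi protein that acts in transport between endosomes and the Golgi, read 326 in atopic diathesis and 3913 in control (log2 signals of 8.35 and 11.93). It was 11.1-fold lower, at -3.47 with a software error of 0.20, and stayed at least 2-fold lower under all 12 other settings, between -4.05 and -3.18. Its relative Gpr108 was above background in atopic diathesis only, at 69.4 against 7.51, at least 3.80-fold higher. The paralogs stood on opposite sides, each on 1 probe with 1 spot per array.

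Gpr137, a lysosomal membrane protein tied in human cells to nutrient signalling through mTORC1, read 35.3 in atopic diathesis and 133 in control. The difference was -1.80, 3.47-fold lower. With normexp background correction it was -0.96 and without background subtraction -0.78, both within 2-fold.

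Gpr137b, a lysosomal relative, showed how far probes of 1 gene can part. Its 4 probes share no run of more than 7 bases and are, from the lowest mm9 position up:
Gpr137b probe 1: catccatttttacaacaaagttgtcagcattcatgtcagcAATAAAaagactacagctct
Gpr137b probe 2: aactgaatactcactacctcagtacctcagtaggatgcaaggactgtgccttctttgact
Gpr137b probe 3: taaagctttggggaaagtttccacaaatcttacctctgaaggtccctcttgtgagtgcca
Gpr137b probe 4: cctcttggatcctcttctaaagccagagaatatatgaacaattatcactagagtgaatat
Probe 1, with its AATAAA, was detected on both arrays, at 82.9 in atopic diathesis and 144 in control (-0.68). Probe 2 was seen in control only, at 27.2 against 6.81 in atopic diathesis. Probe 3 was seen in atopic diathesis only, at 34.0 against 12.7 in control. Probe 4 was on neither array. They lie at chr13:13449891-13449950, chr13:13450790-13450849, chr13:13451128-13451187 and chr13:13453195-13453254 (mm9, minus strand). The gene's value rests on probe 1, and with all probes detected on at least 1 array it was -0.34. Gpr137b passed 2-fold lower with the 75th percentile over all probes (-1.26), after quantile normalization (-1.06) and in the deposited series table (-1.05).

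Gpr155, a lysosomal protein described in human cells as a cholesterol sensor, had the largest bound of the members seen in control only. It read 4.43 in atopic diathesis and 197 in control, at least 9.15-fold lower. The bound was at least 2-fold under all 8 other settings that give one, the lowest at 1.30 on the log2 scale without background subtraction. Gpr172b, now Slc52a2, a riboflavin transporter and no receptor of this class, was above background in atopic diathesis only, at 67.5 against 22.4, at least 3.26-fold higher. Gpr89, Gpr137c and Gpr180 were on neither array.

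**Figure D4:**
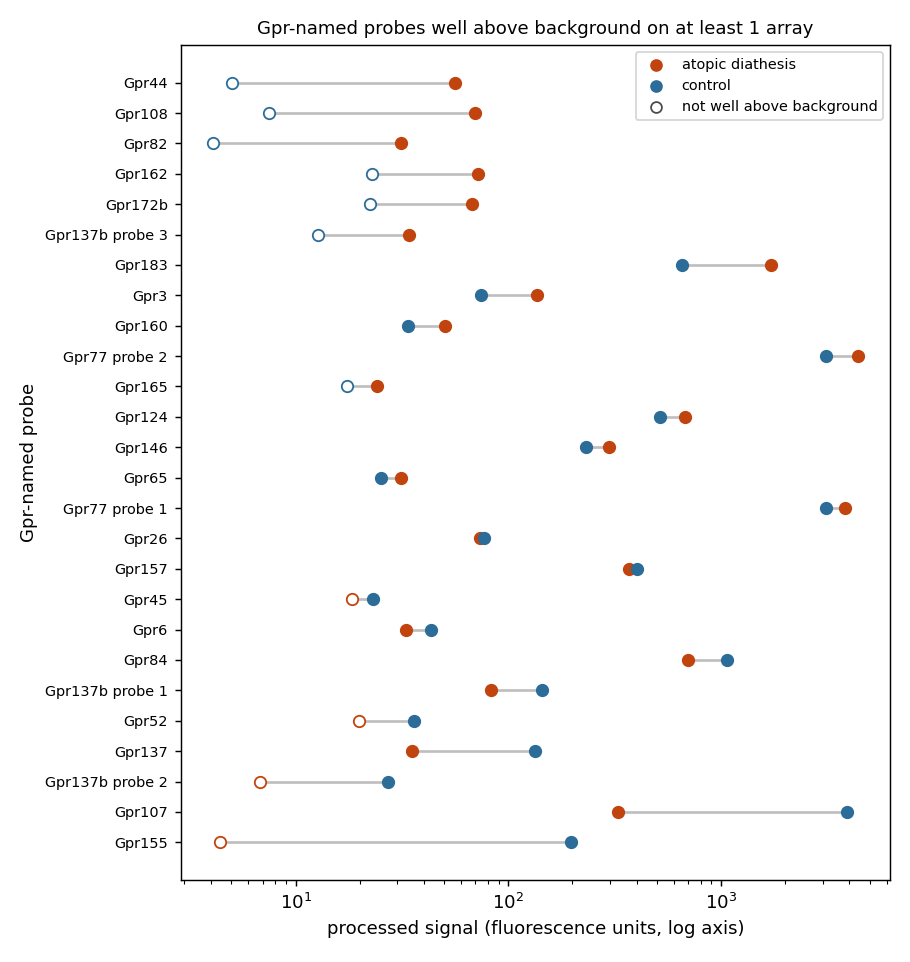
Processed signal (horizontal, log axis) of the 26 Gpr-named probes well above background on at least 1 array, ordered by the ratio of atopic diathesis to control. Open points were not well above background. Open points have no order among themselves, since their level is not known. Among probes filled on both arrays, Gpr183 lies furthest to the atopic diathesis side and Gpr107 furthest to the control side.

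Of the 16 adhesion receptors with old Gpr names, Gpr124 alone was detected. Now Adgra2, it is a coreceptor for Wnt signals in the endothelium of brain vessels. It read 676 in atopic diathesis and 514 in control, a difference of 0.51. Of 7 endothelium and pericyte markers none was above background on both arrays, Pecam1 was so in atopic diathesis only (127 against 5.69) and Flt1 in control only (5.07 against 328). Cldn5, Cdh5 and Tek were on neither array. The summed brightest-probe signal of the list was 165 in atopic diathesis and 356 in control. Most of it came from Pecam1 in the first and Flt1 in the second, so it is no measure of endothelium. The part of endothelial cells in the Gpr124 signal was not tested. The undetected adhesion receptors include Gpr116, Gpr126 and Gpr98, which has 3 probes.

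Neuron-enriched orphans were mostly absent from the detected set. Gpr26 read 73.2 in atopic diathesis and 76.7 in control (0.05). Gpr162 was above background in atopic diathesis only, at 72.0 against 22.8, at least 3.41-fold higher. In control only were Gpr45, at 23.2 against 18.4 in atopic diathesis, and Gpr52, an orphan of the striatum, at 35.9 against 19.8, at least 1.08- and 1.67-fold lower. Without background subtraction their log2 bounds were -0.10 and -0.02, and that of Gpr45 was also below 0 with normexp correction, so no direction is read for either. Gpr37, a receptor of oligodendrocytes and neurons, was on neither array with either of its probes, nor were Gpr19, Gpr22, Gpr85 and Gpr158. Of 8 neuron markers, Snap25 and Map2 were above background on both arrays and 6 on neither. The Snap25 probe read 84015 in atopic diathesis and 82155 in control.

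Of the 11 members outside these lists, Gpr146 and Gpr157 were detected, both on both arrays and within 2-fold. Gpr146, known in mouse liver for its effect on plasma cholesterol, read 297 in atopic diathesis and 231 in control (0.48). Without a background filter the Gpr146 difference was 0.32, as an undetected probe with another file name that matched this gene then counted. Gpr157, an orphan of radial glia in the developing mouse brain, read 369 in atopic diathesis and 402 in control (-0.01).

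Of the 23 detected genes, 20 rest on 1 probe printed once. Gpr149, an orphan of ovary and brain, was printed 10 times. In atopic diathesis 1 spot read 339.6 and was flagged as well above background, while the 8 usable spots read 4.03 to 5.14. The software had marked that spot as an outlier, so it was left out and Gpr149 counts as not detected. The spot at the same place on the control array read 4.82.

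Over all 399 probes printed 10 times, 256 had at most 1 flagged spot in atopic diathesis and 266 in control. Among these, 16 of 2560 spots (0.625%) were flagged alone in atopic diathesis and 12 of 2660 (0.451%) in control, and of these 6 and 10 carried an outlier mark. In 2 cases in atopic diathesis and 0 in control the lone spot reached a signal of 100. Whether any detected receptor printed once is such a spot was not tested.

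**Figure D5:**
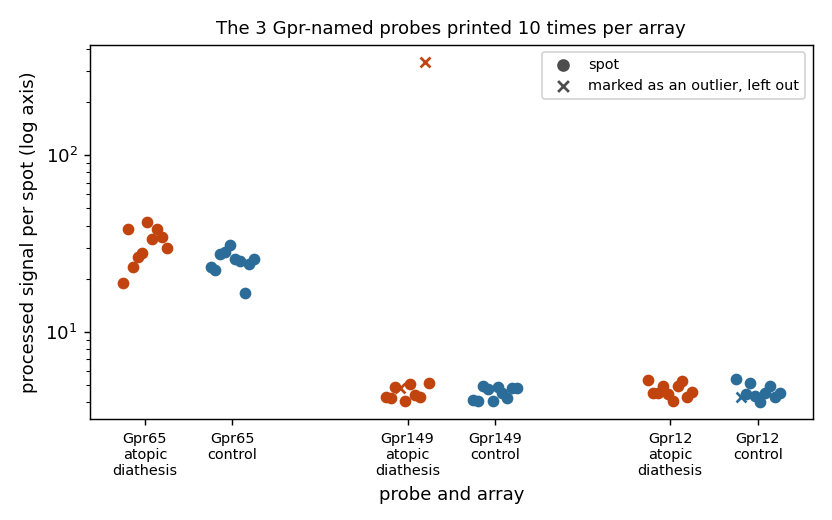
Processed signal of every spot (vertical, log axis) of the 3 Gpr-named probes printed 10 times per array, with crosses for spots marked as outliers. Gpr65 spots overlap between the arrays, and a single Gpr149 spot at 339.6 in atopic diathesis stands above the other Gpr149 spots.

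RNA for the proteins that carry the signal of these receptors was read on the same arrays. Of 59 G protein subunits, adenylyl cyclases, receptor kinases, arrestins and RGS regulators, 25 were measured on both arrays, against 26.3% of all gene names. Of these 25, 7 were higher by 2-fold or more (28%) and 2 lower by as much (8%), with a median of 0.08. Over all measured genes the shares were 18.6% and 14.2%, and the median was also 0.08. Another 5 were seen in atopic diathesis alone and 3 in control alone, against 8.06% and 4.14% of all gene names. Bounds of at least 2-fold numbered 4 and 3, against 62.4% and 48.3% of all genes seen on those arrays alone. Among list genes seen on 1 array, the chaperone Ric8b read 338 in atopic diathesis and 6.17 in control, at least 18.5-fold higher. The gamma subunit Gng11 read 17.95 in atopic diathesis and 369.8 in control, at least 17.2-fold lower. Of those measured on both arrays, the 4 with the largest difference were the gamma subunit Gng12, at 443 in atopic diathesis and 27.7 in control (4.12), the alpha subunits Gna11, at 360 and 37.1 (3.39), and Gnaq, at 316 and 77.8 (2.14), and the inhibitory alpha subunit Gnai3, at 318 and 1051 (-1.61). Gna11 and Gnaq, which drive phospholipase C, each rest on 1 probe. The control readings of Gng12 and Gna11 lay near 19.8, the lowest flagged signal of that array. Values under other processing settings are not given for this list, so nothing is read for the pathway. Gng12 has a second probe that was above background on 1 array only and does not enter its difference.

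The probes of Gpr183 and Gpr18 lie 40.2 kb apart on chromosome 14, and Gpr18 read 4.99 in atopic diathesis and 4.83 in control. The Gpr171 probe lies 119 kb from that of P2ry12 on chromosome 3 (mm9). Gpr171 read 4.78 in atopic diathesis and 8.40 in control and was not flagged on either.

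From RefSeq (GRCm38.p6), 300 bases around the transcription start were at hand for 7 of the 9 inner-membrane genes, where the 10 promoters held a median of 20 CpG dinucleotides (11 to 35). Other members held a median of 7 over 73 promoters, with 6.5 for those detected and 7 for those not, and all 32851 promoters had a median of 7. A CpG-rich and a CpG-poor promoter of members with large differences are shown with CG in capitals.
Gpr107 promoter: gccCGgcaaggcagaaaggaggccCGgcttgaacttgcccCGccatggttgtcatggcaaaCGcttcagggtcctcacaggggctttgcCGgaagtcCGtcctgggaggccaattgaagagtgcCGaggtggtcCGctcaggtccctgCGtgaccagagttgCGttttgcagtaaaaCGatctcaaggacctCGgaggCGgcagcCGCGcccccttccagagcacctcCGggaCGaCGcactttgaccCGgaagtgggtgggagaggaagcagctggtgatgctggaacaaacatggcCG
Gpr183 promoter: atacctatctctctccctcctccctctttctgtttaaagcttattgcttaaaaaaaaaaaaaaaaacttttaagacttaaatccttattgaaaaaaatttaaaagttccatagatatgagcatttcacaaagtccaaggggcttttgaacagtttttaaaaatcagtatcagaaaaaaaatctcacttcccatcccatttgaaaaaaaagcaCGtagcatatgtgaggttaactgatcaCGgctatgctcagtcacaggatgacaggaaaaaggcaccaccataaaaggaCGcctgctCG
They lie at chr2:31152066-31152365 (plus strand, 20 CpG) and chr14:121965144-121965443 (minus strand, 4 CpG) on GRCm38.p6. The motif GAGGAAGT, a core of sites for the macrophage factor PU.1, was searched on both strands and occurred in 1 of 23 promoters of detected members and in 3 of 60 of those not detected, against 3.20% of all promoters. Members with a promoter numbered 17 of 23 detected and 48 of 69 not detected.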

How the data were processed

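Total RNA of sorted spinal cord microglia, 1 atopic diathesis and 1 control sample, was measured on 1-colour Agilent mouse arrays. Per the file headers, the deposited intensity values were made with Agilent Feature Extraction 10.7.1.1 on build mm9, whereas the submitters' processing notes name version 9.5.1.1. The processed signal is background-subtracted by that software, with surrogates for spots not above background. A deposited table with the authors' own intensity values, on a linear scale, has no stated normalization. Detection and outliers came from the software's flags, deposited per spot.

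Spots marked as outliers (122 in atopic diathesis, 136 in control) were left out and the log2 values of spots of one probe were averaged. A probe printed repeatedly was detected where most of its usable spots were flagged. A gene's difference is the mean over probes detected on both arrays. Gene names came from accessions matched to RefSeq genes (27235 of 55681 probes, 100 of 113 Gpr-named ones), and otherwise stayed as in the files. A gene was called past 2-fold. No test was made with 1 array per group. A setting in which any flagged spot of a repeated probe counts was added after seeing the data. The split of repeated probes at a mean signal of 100 was chosen after values were seen. Members and lists were chosen with earlier results of these data known. Every member gene detected on at least 1 array is named with its signals, and some members on neither array are not reported here by name; of the other lists, the 4 measured genes with the largest difference and the markers a result touches are named. Alternatives were other scalings, quantile normalization, normexp background correction (limma 3.58.1, offset 50), no background subtraction, the series table, other filters, kept outlier spots and the brightest probe per gene. The steps were tested on simulated data with Python 3.11.15, numpy 2.4.6 and pandas 2.3.3.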

Additional observations from a re-analysis of the deposited data

Results flagged for a closer look

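A single Gpr149 spot gave a signal in data that the comparisons left out. It read 339.6 on the atopic diathesis array and 4.82 at the same place on the control array, and was marked as an outlier by the scanner software. The 8 usable spots of that probe in atopic diathesis read 4.03 to 5.14. The cause was not tested.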

How the results depend on the processing

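With the 75th percentile taken over all probes, the median measured gene lay at -0.50. Of 14 Gpr-named genes 0 were at least 2-fold higher and 4 lower, and their median was -0.35. Of all 9217 measured genes, 989 were then higher and 2501 lower. Quantile normalization and the deposited series table put the median measured gene at -0.17 in both cases, and the members' median at -0.16 and -0.16. No Gpr-named gene past 2-fold changed sign under any of the 12 settings. Gpr183, Gpr107 and Gpr137 have 1 probe each, flagged on both arrays. Detection on at least 1 array, no filter and the brightest probe could therefore not move them. The splits of all genes past 2-fold ranged from 28.3% higher (75th percentile of all probes) to 71.8% (no background filter), against 56.7%. With probes detected on at least 1 array, 6 of 23 members were higher and 3 lower, and the median was 0.48. Over all genes 4452 were then higher and 2424 lower, with a median of 0.26. Without a filter 15 of 92 members were higher and 6 lower, against 6613 and 2600 over all genes. These counts are not read as results about the members. With positive and significant signals, the looser flag, 6 of 38 were higher and 4 lower, against 3579 and 2739 over all genes. That flag held for 70 of 113 probes in atopic diathesis and 50 in control, against 22 and 19. With normexp or no background subtraction 1 member was lower, Gpr107, against 865 and 767 of all measured genes. Of the 4 bounds of at least 2-fold on the atopic diathesis array, 0 remained in either case. Genes seen in control alone had 1 such bound, but 2 under all-probe scaling, quantile normalization and the series table, and 3 with the looser flag. The cause was not tested. A setting chosen after seeing the data, in which any flagged spot of a repeated probe counts as detection, left 22 and 19 probes detected and gave 5 bounds of at least 2-fold in atopic diathesis. Gpr65, Gpr77, Gpr124, Gpr146, Gpr26 and Gpr6 changed sign within 2-fold under at least 1 setting, as did the bounds of Gpr165 (3 settings), Gpr45 (2) and Gpr52 (1). No paired analysis was possible because each group has 1 sample. The lowest flagged signals were 19.9 in atopic diathesis and 19.8 in control. Some unflagged readings lay above them, such as Gpr35 at 23.3 in atopic diathesis and Gpr162 at 22.8 in control. They are therefore no strict limit for a given spot, and neither are the bounds built on them.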
